A study of Mus musculus with 6 samples.

Results

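The interleukin-1 (IL-1) family of cytokines, receptors and decoys was examined in colonic tissue of mice with dextran sulfate sodium (DSS) colitis. The 10 genes were taken by symbol from a table of 27202 genes: the agonist ligands *Il1a*, *Il1b*, *Il18* and *Il33*, the receptor chains *Il1r1*, *Il1rl1* and *Il1rap*, the receptor antagonist *Il1rn*, the decoy receptor *Il1r2* and the binding protein *Il18bp*. All 10 were found and all 10 had a mean of at least 10 normalized counts, the level required for testing. RNA was sequenced in 3 libraries from *Nedd4l* fl/fl Villin Cre mice (called cKO here), in which Cre under the Villin promoter deletes the ubiquitin ligase gene *Nedd4l* from intestinal epithelial cells (IECs), and in 3 from *Nedd4l* fl/fl littermates without Cre (called WT, as in the labels, although they carry the floxed alleles). The mice were 8 to 10 weeks old, drank 2% DSS, a polymer toxic to the lining of the colon, for 7 days, and were then killed. No library came from a mouse without DSS, so the levels are those of an injured colon and the change that DSS itself makes was not measured. Values are normalized counts, meaning reads scaled by a size factor particular to the library.

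IL-1α and IL-1β signal through IL-1 receptor 1, which pairs with the accessory protein encoded by *Il1rap*, and IL-33 signals through the receptor ST2, encoded by *Il1rl1*, with the same accessory protein. IL-1β and IL-18 are made as precursors that caspase-1 cuts in inflammasomes, whereas IL-1α and IL-33 are released from dying cells as alarm signals. IL-1 receptor antagonist occupies the receptor without signaling, IL-1 receptor 2 binds IL-1 and lacks the signaling domain, and IL-18 binding protein captures free IL-18. In the colon IL-18 is made largely by epithelial cells, IL-1β by myeloid cells, and IL-33 by stromal cells and damaged barrier cells. RNA levels do not measure the cutting or release of these proteins.

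The libraries first have to be described, because they did not behave alike. Their totals ran from 14914367 to 17547270, counted in multiples of each library's smallest value. *Nedd4l* stood at 476, 942 and 566 normalized counts in cKO replicates 1, 2 and 3 and at 1241, 1271 and 1266 in WT replicates 1, 2 and 3, so cKO replicate 2 kept the most *Nedd4l* RNA of its genotype (log2 fold change −0.99 ± 0.24 SE, limma adjusted p = 0.225). Across all tested genes cKO replicate 2 correlated on average at 0.977 with WT libraries and at 0.966 with the rest of its genotype, whereas for cKO replicate 1 these were 0.948 and 0.963. Epithelial markers such as *Epcam*, with 20970 to 24440 normalized counts, were abundant in all 6 libraries. Because the tissue holds many cell types, fewer cells of a type and less RNA per cell cannot be told apart in any value below.

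Before the values, the sequences in front of 4 of the start sites are shown, for *Il1b* and *Il1a*, which are neighbors on chromosome 2 with 54597 bases between them, for *Il18bp*, and for *Il18* as a member with a different pattern across the libraries. Each line holds the 250 bases before the RefSeq start site on GRCm38.p6, 5′ to 3′ on the gene's strand, with capitals for matches on either strand to any of 5 motifs: kappaB as GGGA and CC with any 4 bases between them, C/EBP as TTNNGNAA, AP-1 as TGANTCA, the TATA box as TATAAA and the GAS element as TTCNNNGAA.
Il1b, chr2:129371140-129371389, minus strand: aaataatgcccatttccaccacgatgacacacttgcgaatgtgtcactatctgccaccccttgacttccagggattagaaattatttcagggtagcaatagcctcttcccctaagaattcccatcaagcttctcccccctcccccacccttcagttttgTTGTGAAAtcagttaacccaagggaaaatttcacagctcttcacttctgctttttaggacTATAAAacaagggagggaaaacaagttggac
Il1a, chr2:129309973-129310222, minus strand: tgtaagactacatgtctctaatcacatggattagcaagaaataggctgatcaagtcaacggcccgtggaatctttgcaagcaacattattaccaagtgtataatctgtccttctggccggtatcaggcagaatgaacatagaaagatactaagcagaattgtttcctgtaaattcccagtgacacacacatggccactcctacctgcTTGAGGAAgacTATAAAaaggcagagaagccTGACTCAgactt
Il18bp, chr7:102018233-102018482, minus strand: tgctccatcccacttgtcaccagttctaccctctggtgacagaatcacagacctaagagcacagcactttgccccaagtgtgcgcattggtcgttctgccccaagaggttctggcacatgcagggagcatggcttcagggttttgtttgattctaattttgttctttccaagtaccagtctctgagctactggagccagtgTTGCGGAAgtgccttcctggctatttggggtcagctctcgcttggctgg
Il18, chr9:50554450-50554699, plus strand: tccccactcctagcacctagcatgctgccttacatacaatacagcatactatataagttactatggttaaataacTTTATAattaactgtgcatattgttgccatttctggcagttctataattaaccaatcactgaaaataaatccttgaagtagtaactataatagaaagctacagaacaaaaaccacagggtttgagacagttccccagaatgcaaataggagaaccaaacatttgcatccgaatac
*Il1b* and *Il1a* each held a TATA match close to the start, beginning at −31 and −32 relative to the start site, and a C/EBP match farther out, beginning at −91 and −43. *Il1a* also had an AP-1 match that began at −12. *Il18bp* held a single C/EBP match at −49 and no TATA match, while the TATA match of *Il18* began at −175 and lay on the opposite strand. RefSeq lists 15 start sites for the 10 genes, of which 11 had a C/EBP match, 6 a TATA match, 2 a kappaB match, 2 an AP-1 match and 1 a GAS match within the window of 250 bases before to 50 after the start. Among all 32851 windows the shares were 40.7% for C/EBP, 13.6% for TATA, 20.7% for kappaB, 7.81% for AP-1 and 8.3% for GAS. The kappaB matches belonged to *Il1rn* and *Il1rap*, and the windows shown above contain none. A match is only a run of letters and shows no binding. Overlapping windows of *Il1rn* share some of their matches, and each motif was searched on both strands.

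All 10 members had a log2 fold change above 0 (cKO against WT), as did 50.2% of all tested genes. Their median log2 fold change was 0.84, beside 0.0013 over the 16246 genes tested. *Il1b*, *Il1r2* and *Il18bp* were higher in every cKO library than in every WT library, which is 3 of 10 members where 10.5% of all genes were (5 against 18.5% without cKO replicate 2, and 5 against 16.7% without WT replicate 1), and 0 members were lower in that way (10.9% of all genes). *Il1b* and *Il18bp* were higher at an unadjusted p under 0.05 in limma (2 of 10, against 6.91% of all genes, and 5 of 10 against 8.93% without cKO replicate 2), and 0 members were lower at that level (7.08% of all genes). After Benjamini-Hochberg adjustment over all genes, 0 of the 10 passed 0.05 in limma, nor did any other gene (0.0% of all genes), the smallest adjusted p being 0.211 for *Il1b* among members and 0.111 among all genes. Without cKO replicate 2, *Il1b* and *Il18bp* passed as higher and 0 members as lower (0.431% and 0.32% of all genes, 0.751% in either direction). Without cKO replicate 1, 0 of 10 passed (0.0123% of all genes higher and 0.135% lower). With array weights, which give libraries unequal weight by their fit, *Il1b* and *Il18bp* again passed as higher and 0 members as lower (1.61% and 2.27% of all genes, 3.88% in either direction). A log2 fold change of at least 1 was reached by *Il1a*, *Il1b* and *Il1r2*, 3 of the 10, and by 2.65% of all genes. The members did not vary evenly over the libraries: 8 of the 10 were at their highest of all 6 libraries in cKO replicate 1, as were 24.4% of all genes, and 6 of the 10 had their lowest cKO value in cKO replicate 2, as did 34.6% of all genes.

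**Figure D1:**
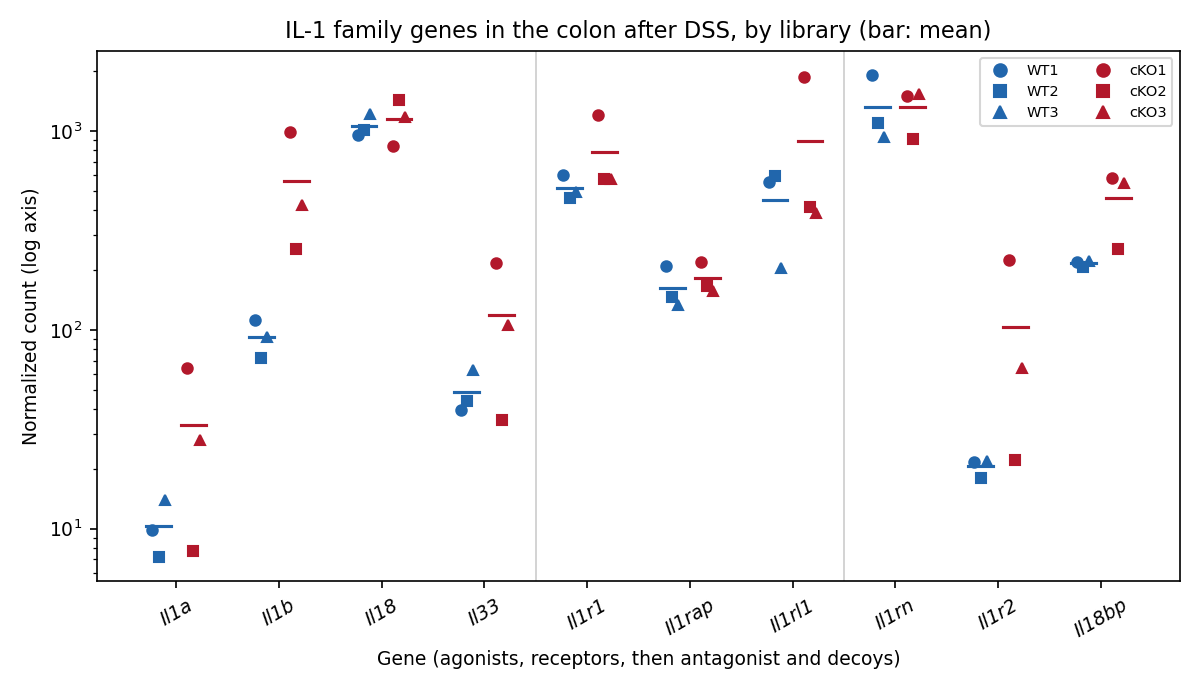
Normalized counts (log axis) of the 10 IL-1 family genes in each of the 6 libraries, WT in blue and cKO in red, with a bar at each group's mean. The cKO points for *Il1b*, *Il1r2* and *Il18bp* all lie above the WT points, cKO replicate 1 is the highest point for 8 genes, and the points of *Il18* and *Il1rn* intermingle.

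*Il1b* showed the clearest difference among the agonists. *Il1b* (ENSMUSG00000027398, chromosome 2 of GRCm38 from 129364570 to 129371139, minus strand), which encodes the secreted agonist IL-1β, had 993, 255 and 424 normalized counts in cKO replicates 1, 2 and 3. WT replicates 1, 2 and 3 had 113, 72.0 and 91.9 normalized counts. Every cKO library was thus above every WT library, including cKO replicate 2, which stood at 2.77-fold the WT mean while replicates 1 and 3 stood at 10.8-fold and 4.601-fold. Mean levels were 558 ± 387 in cKO and 92.1 ± 20.3 in WT (SD, n = 3 each), which is 2.38 ± 0.50 (SE) as a log2 fold change (limma adjusted p = 0.211). The adjusted p of *Il1b* was 0.0483 without cKO replicate 2 (log2 fold change 2.83) and 0.0533 without cKO replicate 1 (log2 fold change 1.85), and over the 15 alternatives it ran from 0.0212 to 0.5002. An antisense gene, *Il1bos*, shares 25 exonic bases with *Il1b* and had at most 2.88 normalized counts in any library.

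*Il1a*, the gene for the alarm cytokine IL-1α, lies beside *Il1b* (ENSMUSG00000027399, chromosome 2 from 129299610 to 129309972, minus strand) but was far less abundant. It had 64.2, 7.74 and 27.9 normalized counts in cKO replicates 1, 2 and 3, and 9.88, 7.20 and 14.0 in WT replicates 1, 2 and 3. cKO replicates 1 and 3 were above all WT libraries and cKO replicate 2 lay within their range, so the genotypes overlapped. The log2 fold change was 1.21 ± 0.70 (SE, limma adjusted p = 0.460), 0.53 without cKO replicate 1 and 1.98 without cKO replicate 2 (adjusted p = 0.763 and 0.110). The noncoding gene *Gm14023* on the opposite strand covers 222 of the 1974 exonic bases of *Il1a* and had 5.16 to 16.0 normalized counts. Whether the counting used strand is not stated, so the low counts of *Il1a* are uncertain by that amount.

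*Il33*, which encodes a nuclear alarm cytokine, followed the same order of cKO libraries as *Il1a*. *Il33* (ENSMUSG00000024810, chromosome 19 from 29925114 to 29960718, plus strand) had 217, 35.4 and 105 normalized counts in cKO replicates 1, 2 and 3, and 39.5, 44.1 and 62.9 in WT replicates 1, 2 and 3. cKO replicate 2 was the lowest of all 6 libraries, and the other cKO libraries were the highest. The log2 fold change was 0.95 ± 0.63 (SE, limma adjusted p = 0.519), with 1.64 without cKO replicate 2 and 0.35 without cKO replicate 1 (adjusted p = 0.0903 and 0.799). Its size therefore rests on which cKO library is included.

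*Il18*, the epithelial member, did not share this pattern. *Il18* (ENSMUSG00000039217, chromosome 9 from 50554827 to 50581840, plus strand) had 839, 1429 and 1179 normalized counts in cKO replicates 1, 2 and 3, and 956, 1016 and 1217 in WT replicates 1, 2 and 3. The lowest and the highest value both came from cKO libraries, and cKO replicate 1, the highest library for most members, was the lowest here. Mean levels were 1149 ± 297 in cKO and 1063 ± 137 in WT (SD, n = 3 each), which is 0.086 ± 0.20 (SE) as a log2 fold change (limma adjusted p = 0.863), which turned to −0.088 without cKO replicate 2. A difference between the genotypes was not detected at this spread.

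Of the receptor chains, none separated the genotypes. *Il1r1*, the signaling receptor for IL-1 (ENSMUSG00000026072, chromosome 1 from 40225080 to 40317257, plus strand), had 1201, 573 and 571 normalized counts in cKO replicates 1, 2 and 3, and 603, 460 and 491 in WT replicates 1, 2 and 3. Only cKO replicate 1 exceeded the WT range, and the log2 fold change of 0.51 ± 0.31 (SE, limma adjusted p = 0.484) was 0.15 without it. *Il1rl1*, which encodes the IL-33 receptor ST2 (ENSMUSG00000026069, chromosome 1 from 40429570 to 40465415, plus strand), had 1870, 415 and 389 normalized counts in cKO replicates 1, 2 and 3, and 552, 592 and 204 in WT replicates 1, 2 and 3. The other cKO libraries were within the WT range, and the log2 fold change of 0.73 ± 0.75 (SE, limma adjusted p = 0.680) became −0.014 without cKO replicate 1. WT replicate 3 was the lowest of all libraries for this gene, and without it the log2 fold change was 0.23. *Il1rap*, the shared accessory chain (ENSMUSG00000022514, chromosome 16 from 26581704 to 26730117, plus strand), had 220.5, 167 and 157 normalized counts in cKO replicates 1, 2 and 3, and 209, 146 and 133 in WT replicates 1, 2 and 3. Its log2 fold change was 0.17 ± 0.22 (SE, limma adjusted p = 0.745), and the genotypes overlapped.

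The 3 soluble or decoy inhibitors differed from each other. *Il1rn*, which encodes IL-1 receptor antagonist (ENSMUSG00000026981, chromosome 2 from 24336853 to 24351494, plus strand), had 1506, 915 and 1539 normalized counts in cKO replicates 1, 2 and 3, and 1914, 1096 and 933 in WT replicates 1, 2 and 3. The highest library was WT and the lowest was cKO, and the means of 1320 ± 351 (SD, n = 3) and 1314 ± 526 (SD, n = 3) gave 0.039 ± 0.33 (SE) as a log2 fold change (limma adjusted p = 0.967). Its sign turned in 4 of the 6 fits that left out a library, as listed in the closing section.

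*Il1r2*, the decoy receptor for IL-1 (ENSMUSG00000026073, chromosome 1 from 40074079 to 40125231, plus strand, with 99848 bases between it and *Il1r1*), had 225, 22.1 and 64.0 normalized counts in cKO replicates 1, 2 and 3. In WT replicates 1, 2 and 3 it had 21.7, 18.0 and 22.0. The cKO libraries did not overlap the WT libraries, but cKO replicate 2 was above WT replicate 3 by a fraction of a count, and under quantile normalization the number of members without overlap was 2. Mean levels were 104 ± 107 in cKO and 20.6 ± 2.23 in WT (SD, n = 3 each), which is 1.70 ± 0.78 (SE) as a log2 fold change (limma adjusted p = 0.385). It was 2.50 without cKO replicate 2 and 0.85 without cKO replicate 1 (adjusted p = 0.0796 and 0.503).

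*Il18bp*, which encodes the soluble inhibitor of IL-18 (ENSMUSG00000070427, chromosome 7 from 102014885 to 102018690, minus strand), had 578, 255 and 549 normalized counts in cKO replicates 1, 2 and 3 against 219, 208 and 222 in WT replicates 1, 2 and 3. The WT libraries lay close together and every cKO library was above them. Mean levels were 461 ± 178 in cKO and 216 ± 7.40 in WT (SD, n = 3 each), which is 1.00 ± 0.31 (SE) as a log2 fold change (limma adjusted p = 0.282). Without cKO replicate 2 it was 1.38 (adjusted p = 0.0197), without cKO replicate 1 it was 0.79 (adjusted p = 0.387). The 15 alternatives gave adjusted p from 0.0197 to 0.520. *Numa1* on the opposite strand shares 80 exonic bases (2.64%) with *Il18bp* and had 2768 to 3077 normalized counts, with no such separation of the genotypes.

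**Figure D2:**
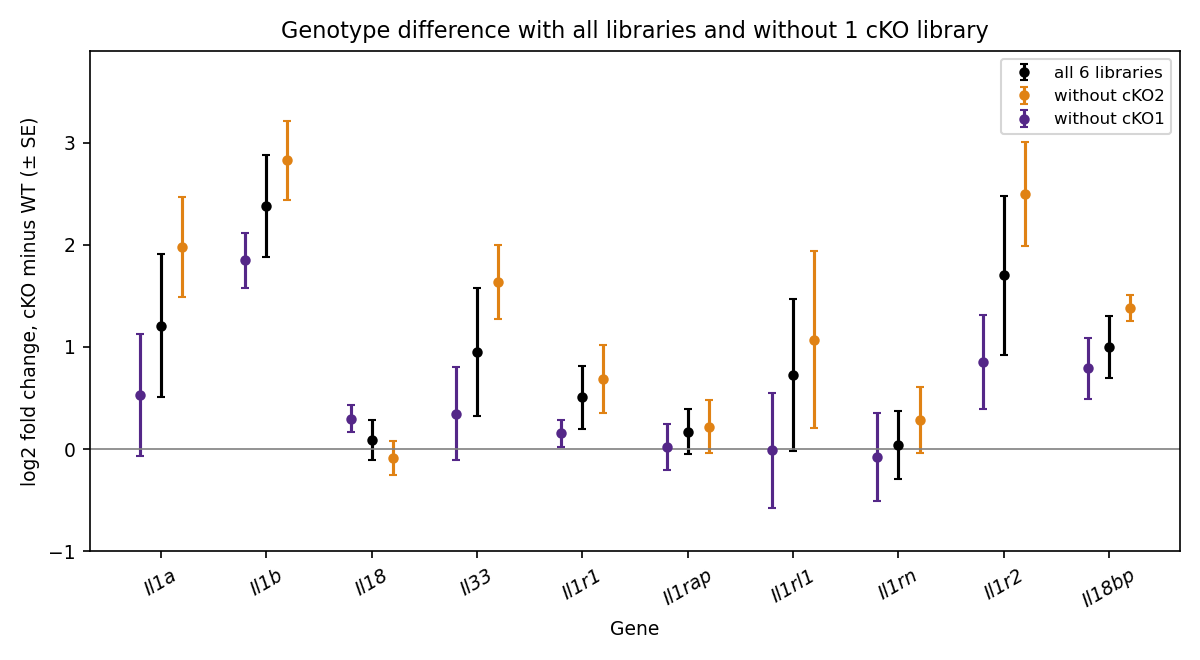
Log2 fold change (cKO minus WT) of each member with its standard error from limma, for all 6 libraries (black), without cKO replicate 2 (orange) and without cKO replicate 1 (purple). *Il1b* stays between 1.85 and 2.83 and *Il18bp* between 0.79 and 1.38, whereas *Il1rl1*, *Il18* and *Il1rn* cross 0.

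Levels of different genes were compared as normalized counts per kilobase of gene length. In WT mice *Il18* had the highest level per kilobase, 1031 ± 133 (SD, n = 3), and *Il1rn* followed with 237, its libraries running from 168.5 to 345.8. *Il1r1* (81.4), *Il18bp* (71.5) and *Il1rl1* (65.2) came next in mean level per kilobase, followed by *Il1b* (48.3), and in this run of 4 genes the WT libraries of each gene overlapped those of the next. *Il33* (16.9) and *Il1rap* (14.3) overlapped each other, while *Il1r2* (10.8) and *Il1a* (5.24 per kilobase) were lowest and did not overlap their neighbors in this order. In cKO mice *Il18* was again first in mean level per kilobase, at 1115, and the mean of *Il1b* was 292 ± 203 (SD, n = 3) beside 239 for *Il1rn*. That order rested on cKO replicate 1, where *Il1b* had 520.7 and *Il1rn* 272 per kilobase. In cKO replicates 2 and 3 *Il1rn* was the higher, with 165 and 278.0 against 134 and 222 for *Il1b*, and without cKO replicate 1 the means per kilobase were 178 for *Il1b* and 222 for *Il1rn*.

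Plain ratios within a library do not depend on its size factor, and 5 pairs of members were compared. The log2 ratios that were tested added 1 to each count, so for low genes such as *Il1a* they depend on it to some extent. *Il1rn* normalized counts were 15.2-fold and 10.2-fold those of *Il1b* in WT replicates 2 and 3 and higher still in WT replicate 1, but 1.52-fold, 3.58-fold and 3.63-fold in cKO replicates 1, 2 and 3. All cKO libraries were below all WT libraries, the log2 ratio being 1.43 ± 0.72 (SD, n = 3) in cKO and 3.77 ± 0.39 (SD, n = 3) in WT, a difference of −2.34 (two-sided exact permutation p = 0.10, which is the lowest possible with 3 against 3). That ratio combines an *Il1b* difference with an *Il1rn* level that overlapped between the genotypes. For *Il1rn* to *Il1a* the difference in log2 ratio was −1.17 and the genotypes overlapped (two-sided exact permutation p = 0.20). The ratio of the decoy to the signaling receptor, *Il1r2* to *Il1r1*, was 0.1875 and 0.112 in cKO replicates 1 and 3, against 0.0386 in cKO replicate 2 and 0.0360 to 0.0447 in WT (log2 difference 1.19, two-sided exact permutation p = 0.30). *Il18bp* to *Il18* was 0.689 and 0.465 in cKO replicates 1 and 3, with 0.179 in cKO replicate 2 just below the WT range of 0.182 to 0.229 (log2 difference 0.91, two-sided exact permutation p = 0.40). *Il1rl1* to *Il33* ran from 3.24 to 14.0 in WT and from 3.70 to 11.7 in cKO (log2 difference −0.22, two-sided exact permutation p = 0.60). These are 5 tests in a design that cannot reach 0.05.

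**Figure D3:**
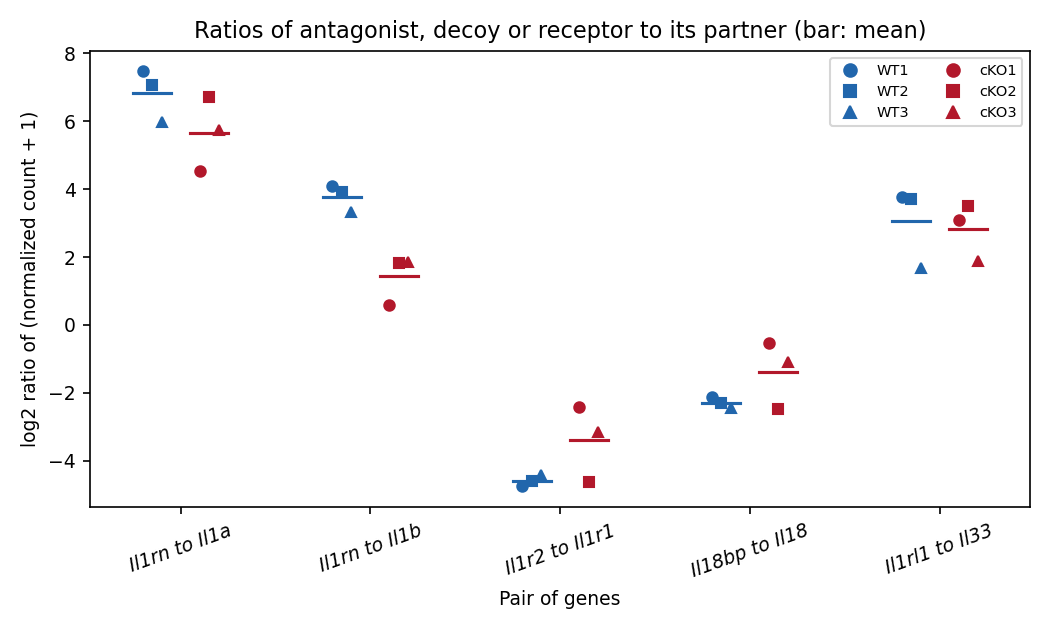
Log2 ratio of (normalized count + 1) for 5 pairs of members in each library, WT in blue and cKO in red, with a bar at each group's mean. For *Il1rn* to *Il1b* the cKO points, from 0.60 to 1.86, lie below the WT points, from 3.33 to 4.08, and in the other 4 pairs the genotypes overlap.

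The remaining genes of the pathway were described by lists. Of 11 other ligands and receptors of the family, 5 were tested, and 4 had a log2 fold change above 0. *Il1rl2*, the IL-36 receptor, was higher in every cKO library, with 152, 113 and 98.0 normalized counts against 83.9, 49.5 and 73.9 in WT replicates 1, 2 and 3 (log2 fold change 0.81, limma adjusted p = 0.292). *Il1f9*, which encodes IL-36γ, had 66.1, 0.0 and 9.28 normalized counts in cKO and 1.98, 4.50 and 3.00 in WT replicates 1, 2 and 3, so it was high in 1 library and the genotypes overlapped. With a WT mean of 3.16, *Il1f9* reached the level required for testing only through cKO libraries, and it is among the 4 above 0. *Il18rap*, an IL-18 receptor chain, had a log2 fold change of 0.68 and *Sigirr*, a negative regulator, of −0.12 (limma adjusted p = 0.580 and 0.642).

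Genes of maturation and release had a median log2 fold change near 0. Of 27 listed, 24 were tested, with 18 above and 6 below 0, a median of 0.064, and 1 higher and 1 lower at an unadjusted p under 0.05 (background 6.91% and 7.08%). *Casp1*, the protease that matures IL-1β and IL-18, had 2176, 2256 and 2312 normalized counts in cKO and 2124, 2015 and 2049 in WT replicates 1, 2 and 3, higher in every cKO library but by little (log2 fold change 0.12, limma adjusted p = 0.454). *Nlrp3*, an inflammasome sensor, had 116, 24.3 and 46.4 against 19.8, 18.0 and 19.0 normalized counts (log2 fold change 1.39, adjusted p = 0.317), the same order of cKO libraries as *Il1b*. *Gsdme*, a pore-forming gasdermin, was lower in every cKO library (log2 fold change −0.44, adjusted p = 0.284), and *Nlrp1a* and *Naip2*, inflammasome sensors, had 1.10 and 0.22 (adjusted p = 0.365 and 0.366). With a WT mean of 8.71, *Nlrp1a* reached the level required for testing only through cKO libraries, and it is among the 18 above 0. *Casp1* was chosen for its role after its values were seen.

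Of 32 genes of receptor signaling, all 32 were tested, with 21 above and 11 below 0, a median log2 fold change of 0.088, and 4 higher and 1 lower at an unadjusted p under 0.05 (background 6.91% and 7.08%). *Myd88*, the adaptor shared by the family's receptors, had 834, 679 and 663 normalized counts in cKO and 570, 647 and 541 in WT replicates 1, 2 and 3 (log2 fold change 0.30, limma adjusted p = 0.335). *Peli3*, a ubiquitin ligase of the IRAK complex, had a log2 fold change of 1.28, *Jun* of 0.25 and *Tab1* of −0.31 (adjusted p from 0.226 to 0.342).

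The genes that IL-1 is known to induce had larger log2 fold changes. Of 22 listed, 20 were tested, and 19 were above 0, with a median log2 fold change of 1.69. At an unadjusted p under 0.05, 11 were higher (6.91% of all genes) and 1 lower (7.08%), 11 were higher without overlap (10.5%), and after adjustment over all genes 0 passed 0.05. Without cKO replicate 1, 10 were higher at that unadjusted level (5.31% of all genes), and without cKO replicate 2, 17 were (8.93%). The count was 7 without WT replicate 1 (5.96% of all genes) and 7 without WT replicate 3 (5.05%). With all libraries *Csf3*, *Cxcl3* and *Hp* were in both the unadjusted p count and the count without overlap. Their WT means were 0.30, 0.90 and 8.08 normalized counts, so they reached the level required for testing only through cKO libraries. *Cxcl2*, in neither count, did so too, and the count above 0 and the median include all of these genes. *Ccl2*, which recruits monocytes, had 121, 43.1 and 79.4 normalized counts in cKO and 22.7, 11.7 and 9.99 in WT replicates 1, 2 and 3 (log2 fold change 2.34, limma adjusted p = 0.169). *Ptgs2*, which encodes cyclooxygenase-2, and *Cxcl1*, which recruits neutrophils, had log2 fold changes of 1.59 and 1.76 (adjusted p = 0.169 and 0.202). *Ccl20*, an epithelial chemokine, was the exception, with 63.3, 60.8 and 88.7 against 266, 158 and 154 normalized counts (log2 fold change −1.40, adjusted p = 0.169). These genes respond to many signals besides IL-1, and several were already known from earlier results of these data, so their counts are no independent evidence of IL-1 activity.

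Of 14 targets of IL-33 and IL-18, 7 were tested and all 7 were above 0 (50.2% of all genes), with a median log2 fold change of 0.40. *Fasl* and *Ccl22* among them were close to 0 (log2 fold change 0.074 and 0.018, limma adjusted p = 0.960 and 0.978). At an unadjusted p under 0.05 in limma, 1 of the 7 was higher (6.91% of all genes), and 2 were higher without overlap (10.5%). *Ccl11*, an eosinophil chemokine, had 313, 170 and 134 normalized counts in cKO against 106, 27.9 and 57.9 in WT replicates 1, 2 and 3 (log2 fold change 1.77, limma adjusted p = 0.281). *Arg1*, *Gzmb* and *Areg* had log2 fold changes of 2.05, 0.58 and 0.40 (adjusted p from 0.370 to 0.571). *Arg1*, with a WT mean of 8.05, reached the level required for testing only through cKO libraries, and it is in the counts above 0 and without overlap. The type 2 cytokines *Il4*, *Il5* and *Il13* and the IL-18 target *Ifng* were below the level required for testing, with at most 13.4 normalized counts in any library.

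**Figure D4:**
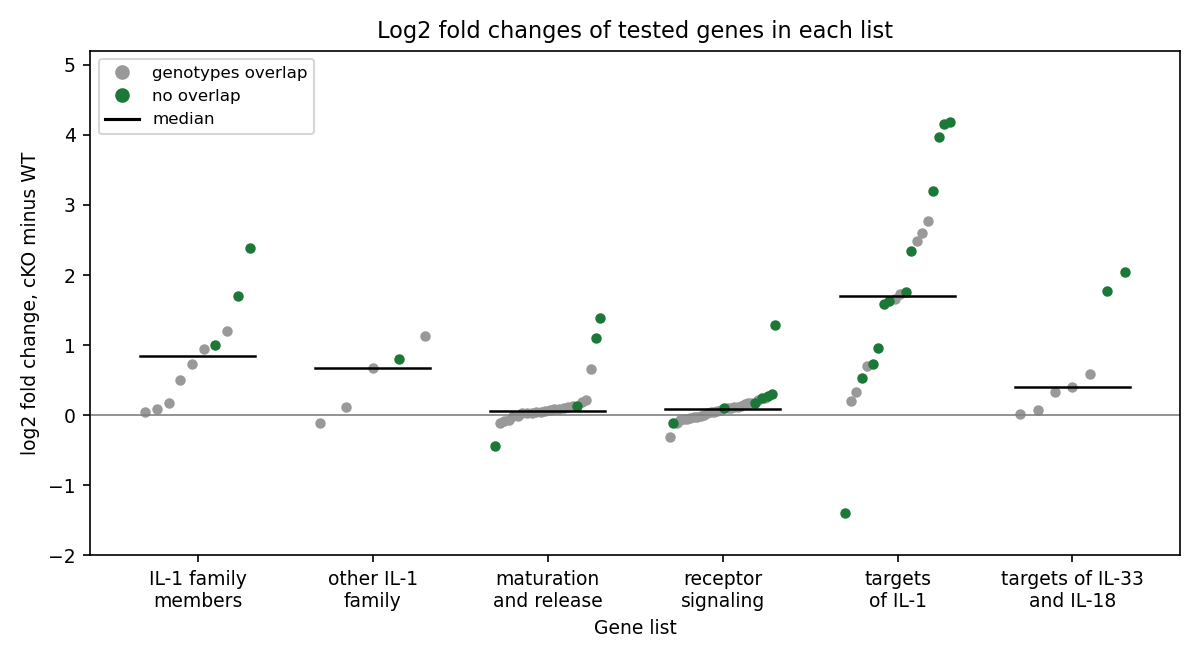
Log2 fold change (cKO minus WT) of each tested gene in the members and in 5 lists of pathway genes, sorted within a list, with green points where the genotypes did not overlap and a line at the median. The IL-1 targets have a median of 1.69, against 0.064 for maturation and release and 0.088 for receptor signaling.

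Markers of several cell types differed along with these values. Of 10 neutrophil markers all were tested, 9 were above 0 (50.2% of all genes), 5 were higher without overlap (10.5%), and their median log2 fold change was 3.40. Their summed level was 3077 to 11330 normalized counts in cKO and 3033 to 3307 in WT. *Ly6g* had 2200 to 3136 in every library, which was most of the sum in all libraries but cKO replicate 1. Without *Ly6g*, a choice made after its values were seen, the sum was 8841, 244 and 1357 in cKO replicates 1, 2 and 3 and 203, 171 and 233 in WT replicates 1, 2 and 3. The order of the cKO libraries was that of *Il1b*, *Il1a*, *Il1r2*, *Il18bp* and *Il33*. It was not particular to neutrophil markers, because the fibroblast sum had it too (44840, 23830 and 22550 in cKO replicates 1, 3 and 2). The monocyte and macrophage sum had the reverse order (6538, 7227 and 7506 in cKO replicates 1, 3 and 2). *S100a8*, one of the neutrophil markers, ran from 31.0 to 2708 in cKO and from 12.8 to 38.7 in WT. In cKO replicate 2, where *Il1b* was 2.77-fold the WT mean, the markers ranged from *Lcn2* at 0.680-fold to *Mmp8* at 5.15-fold their WT means, and *S100a9*, *Mmp8*, *Mmp9*, *Cxcr2* and *Trem1* were above every WT library. *Cxcr2* was at 0.0 in WT replicates 1 and 3, and *Mmp8* in WT replicate 3. With WT means of 1.29, 0.90, 3.215 and 9.51, *Mmp8*, *Cxcr2*, *Trem1* and *Retnlg* reached the level required for testing only through cKO libraries. Their cKO means therefore had to be higher, and the counts and median above rest partly on them. Of the other markers, *Mmp9* and *S100a9* were higher without overlap (log2 fold change 2.81 and 4.35). *Csf3r*, *Lcn2*, *S100a8* and *Ly6g* overlapped between the genotypes (1.43, 1.73, 3.70 and −0.27). *Lcn2* is also on the list of IL-1 targets.

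Of 10 markers of monocytes and macrophages all 10 were above 0 (50.2% of all genes) and 3 were higher without overlap (10.5%). None was at 0 in any library, and their sum ran from 6538 to 7506 in cKO and from 4729 to 6564 in WT. The 3 without overlap were *Ly6c2* (396, 427 and 395 normalized counts in cKO against 165, 81.9 and 165 in WT), *Ccr2* and *Fcgr1*. In cKO replicate 2 they stood at 3.111-fold, 1.504-fold and 1.877-fold their WT means. Fibroblast markers summed to 22550 to 44840 in cKO and 11540 to 19580 in WT without overlap, with 10 of 10 above 0 (50.2% of all genes). Of these markers, 9 of 10 were highest in cKO replicate 1 (24.4% of all genes), as were *Il33*, *Il1r1* and *Il1rl1*. The same held for 9 of 10 neutrophil markers and for 8 of the 10 members. Markers of mast cells, which carry ST2, summed to 811 to 1799 in cKO and 830 to 919 in WT and were highest in cKO replicate 2, where *Il1rl1* stood at 415. Of 10 listed, 7 were tested and 5 were above 0 (50.2% of all genes), with a median log2 fold change of 2.07. Without overlap, 4 were higher and 1 lower (10.5% and 10.9% of all genes). *Cpa3*, *Mcpt4* and *Hdc*, with WT means of 8.01, 3.54 and 9.05, reached the level required for testing only through cKO libraries. Their cKO means therefore had to be higher, and the count above 0 and the median rest partly on them. Of the other tested markers, *Mcpt1* and *Mcpt2* had log2 fold changes of 2.46 and 2.07, and *Cma1* and *Kit* of −0.48 and −0.65. The protease gene *Mcpt1* had 111, 643 and 274 normalized counts in cKO and 68.1, 35.1 and 46.9 in WT replicates 1, 2 and 3, *Mcpt2*, *Mcpt4* and *Hdc* were likewise higher in every cKO library, and *Fcer1a* was at 0.0 in WT replicate 2. *Kit*, which made up most of the sum in WT (703 to 739), was lower in every cKO library (283 to 644.5). Epithelial markers summed to 227200 to 274700 in cKO and 256100 to 280200 in WT. Sums of T cell (796 to 1101 and 729 to 911), B and plasma cell (34330 to 46480 and 25700 to 46650), endothelial (2491 to 3962 and 1729 to 2655) and smooth muscle markers (6036 to 11500 and 5559 to 21800) overlapped between cKO and WT. The part of these cells in the differences of the members was not tested.

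Genes whose pattern across the 6 libraries came closest to a member were found by the root mean square difference of log2 values, each gene centered on its own mean, among 11879 protein-coding genes with a mean of at least 50. For *Il1b* they were *Serpina3n* (0.12), *Lox* (0.22) and *Aldh1a3* (0.25). *Serpina3n* had 3881, 982 and 1549 normalized counts in cKO and 458, 334 and 411 in WT replicates 1, 2 and 3. For *Il18* they were *Mib2* (0.050), *S100a1* (0.054) and *Pla2g10* (0.054), for *Il33* they were *Prss27* (0.22), *Gbp4* (0.22) and *Nos2* (0.28), and for *Il1rl1* they were *Kcnj8* (0.25), *Nrg1* (0.30) and *Pappa* (0.37). *Nos2*, whose enzyme makes nitric oxide and which is also on the list of IL-1 targets, had 7042, 1146 and 3601 normalized counts in cKO and 1811, 2137 and 1771 in WT replicates 1, 2 and 3, so that, as for *Il33*, cKO replicate 2 was the lowest of all libraries. Likeness over 6 libraries is a description of these mice.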

How the data were processed

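RNA was sequenced in 3 cKO and 3 WT libraries from the colon of mice given DSS. The authors deposited normalized counts, a signal in which reads per gene were divided by 1 size factor per library, and per the labels the submitters' processing notes name HISAT2 2.0.5 and featureCounts 1.5.0-p3. The notes name hg18, a human build, but 97.2% of the 27191 identifiers found in GENCODE mouse release 21 (GRCm38) had identical coordinates there, the 10 members included. The strand setting, normalizing tool and test are not given in the sources used here. The table's columns of genotype means matched the library means, and its columns of fold change, p-value and adjusted p-value were not used. Gene length (other columns) was taken as deposited.

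Genes with a mean of at least 10 (16246 of 27202) were compared as log2(value + 1), which understates fold changes of low genes, with limma 3.58.1 (trend and robust) under R 4.3.3, Benjamini-Hochberg adjustment and a threshold of 0.05. In simulated data for cKO against WT over 16246 genes recovery was 49% for changed genes at log2 1 and 80.9% at log2 2. The simulated noise was independent between genes and had the same SD in both genotypes. That setting differs from these libraries, so the shares are no measure of recovery for the members. Exact permutation tests used scipy 1.17.1 and figures matplotlib 3.10.9. All values were whole multiples (tolerance 0.001) of the library's smallest value. Models for counts were not run, because the whole-read check did not accept WT replicate 3, whose smallest value is close to 1. The labels number the libraries but do not state that each came from a separate mouse, so p-values measure only the spread between these samples, which may be technical. The members, lists and named genes (all members, up to 4 genes per pathway list by smallest p, 3 per member by likeness) were chosen with earlier results of these data known. Motifs and promoters came from RefSeq on GRCm38.p6, where all 10 members matched. Depth limits are given beside the values, and the alternatives tried are in the closing section.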

Additional observations from a re-analysis of the deposited data

How the results depend on the processing

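Of 15 alternatives, 11 left the count of called genes at 0. It was 30 with no filter on low values, 631 with array weights, and from 0 to 122 when each library was left out in turn (24 without cKO replicate 1 and 122 without cKO replicate 2). Called members numbered 0 in all fits but 2: with array weights and without cKO replicate 2, 2 members (*Il1b* and *Il18bp*) passed, so leaving out a library gave 0 to 2. Members free of overlap numbered 2 to 5 when libraries were rescaled or left out, with 5 without cKO replicate 2 and 5 without WT replicate 1. With fewer libraries overlap is easier to avoid, and 18.5% and 16.7% of all genes were then higher without overlap. Counts at an unadjusted p under 0.05 without each library, added after seeing the data, were 2 to 5 members and 7 to 17 IL-1 targets (17 without cKO replicate 2, 7 without WT replicate 1 or 3). The direction of *Il1rn* turned without cKO replicate 1 (−0.075), cKO replicate 3 (−0.091), WT replicate 2 (−0.056) and WT replicate 3 (−0.17), within a range up to 0.35, that of *Il18* without cKO replicate 2 (−0.088, otherwise up to 0.30), that of *Il1rl1* without cKO replicate 1 (−0.014, otherwise up to 1.12) and that of *Il1f9* without cKO replicate 1 (−0.33, otherwise up to 2.71). The ratio of *Il1rl1* to *Il33* turned to 0.25 without cKO replicate 3, 0.13 without WT replicate 1 and 0.11 without WT replicate 2, a range of −0.913 to 0.253. The other 4 ratios kept their direction. The cause was not tested.

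Same-numbered libraries did not deviate together over all tested genes (correlations of −0.029, −0.090 and −0.056 for replicates 1, 2 and 3). With so few libraries these values cannot decide whether the numbers pair the samples. With the replicate number as a block the call counts were again 0 genes and 0 members. The SE of each member was then smaller, for *Il1b* 0.28 instead of 0.50 (limma adjusted p = 0.164) and for *Il1r1* 0.17 instead of 0.31 (adjusted p = 0.319). Models for counts were planned and not run. Low counts limit *Il1a* and *Il1r2* in WT mice.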
